A study of Mus musculus with 2 samples.

Results

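Wide Usp39 peaks are the regions of 500 bases or more in the list of peaks called from an RNA immunoprecipitation (RIP-seq) of FLAG-tagged Usp39. They were selected on the deposited peak width alone, and 881 peaks met the limit, 2.45% of the list (95% Wilson interval 2.29 to 2.61). The other 35099 listed peaks are called narrower peaks here. The IP library held RNA bound by anti-FLAG magnetic beads from nuclear pellets of AML12 cells, a line of normal mouse hepatocytes grown with dexamethasone, and the Input library came from the same preparation without the pull-down. In both, a doxycycline-inducible FLAG-Usp39 vector had been transfected, doxycycline was given for 72 h and paraformaldehyde for 5 min, so all cells overexpressed the tagged protein and no library without the tag was compared. There was 1 IP library and 1 Input library with paired reads of 150 bases, the list names neither, and depth is unknown. The study's reporting form speaks of several independent RIP-seq experiments, but the labels give 1 library per group and no source used here says whether these were pooled. With no replicate values there was nothing to test between libraries, and every interval given covers counting error only. Wide peaks of 1 gene, and peaks that the list holds in both of its passes, share their source, so these intervals are narrower than they would be for independent peaks.

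Usp39 belongs to the tri-snRNP, the preassembled particle of U4, U5 and U6 RNAs that joins a spliceosome before an intron is removed. It resembles ubiquitin-specific proteases in sequence and is needed for splicing of many introns. A nuclear RIP of such a protein can recover unspliced transcripts, spliced RNA that is still in the nucleus, and RNA that stays there, such as the long noncoding RNAs of nuclear bodies.

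The sequences that follow were read from the RefSeq GRCm38 assembly, which is the mm10 build of the peaks. The first 5 are introns that lay whole inside a wide site, that is, a stretch of overlapping or touching wide peaks. They are shown because such a site spans 2 exons and the intron between them without a break. Each is given 5′ to 3′ on the strand of its gene, with 15 bases of exon in capitals at either end. The Eef2 stretch is chr10:81181143-81181242 (plus strand), Actb is chr5:142904234-142904358 (minus), Hsp90ab1 is chr17:45569373-45569484 (minus), Leng8 is chr7:4144799-4144909 (plus) and Sgk1 is chr10:21996340-21996573 (plus).
Eef2: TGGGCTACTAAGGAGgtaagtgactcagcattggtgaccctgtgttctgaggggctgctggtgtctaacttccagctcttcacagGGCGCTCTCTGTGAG
Actb: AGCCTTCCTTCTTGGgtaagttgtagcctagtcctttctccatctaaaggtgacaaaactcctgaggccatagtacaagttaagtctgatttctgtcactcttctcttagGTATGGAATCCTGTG
Hsp90ab1: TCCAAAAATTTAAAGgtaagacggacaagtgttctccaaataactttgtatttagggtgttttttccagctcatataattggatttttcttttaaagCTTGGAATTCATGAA
Leng8: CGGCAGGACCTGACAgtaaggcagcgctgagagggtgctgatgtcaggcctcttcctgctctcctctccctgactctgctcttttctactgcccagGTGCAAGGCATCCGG
Sgk1: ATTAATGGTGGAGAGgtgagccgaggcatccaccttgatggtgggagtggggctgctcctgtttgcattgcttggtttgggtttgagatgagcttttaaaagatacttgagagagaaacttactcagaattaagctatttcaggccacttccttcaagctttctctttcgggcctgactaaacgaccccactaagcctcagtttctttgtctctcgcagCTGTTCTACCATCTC
All 5 introns start with gt and end with ag, the usual donor and acceptor, and they are 70, 95, 82, 81 and 204 bases long. The Leng8 intron is exonic in another annotated transcript of the gene, and the other 4 are not.

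A hexamer that the study named, GGCCAC, is shown in capitals in the noncoding RNA Neat1 and in the coding exons of Ahnak and Srrm2, the genes of 3 of the widest sites. The stretches are chr19:5827629-5827728 (minus strand), chr19:9002030-9002129 (plus) and chr17:23817842-23817941 (plus).
Neat1: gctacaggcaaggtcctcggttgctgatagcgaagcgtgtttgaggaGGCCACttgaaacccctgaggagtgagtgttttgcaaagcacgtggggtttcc
Ahnak: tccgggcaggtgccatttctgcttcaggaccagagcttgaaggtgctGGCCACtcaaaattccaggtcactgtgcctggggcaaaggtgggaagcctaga
Srrm2: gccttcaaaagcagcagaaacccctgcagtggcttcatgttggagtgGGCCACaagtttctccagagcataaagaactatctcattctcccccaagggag
Each stretch holds 1 match, and the whole sites held 9 matches in Neat1, 2 in Ahnak and 2 in Srrm2 on the strand of the gene. The Malat1 site held no match.

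One wide site, named for Col19a1 but 24029 bases before its start, held sequence of the mitochondrial genome. The nuclear stretch is chr1:24613067-24613167 (minus strand), the mitochondrial stretch is bases 9411 to 9511, and capitals mark the base that differs.
Nuclear site: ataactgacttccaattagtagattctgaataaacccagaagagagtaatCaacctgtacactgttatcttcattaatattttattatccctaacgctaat
Mitochondrial genome: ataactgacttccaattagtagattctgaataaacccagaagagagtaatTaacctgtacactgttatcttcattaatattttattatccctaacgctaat
Over 3351 bases aligned without a gap, the nuclear and mitochondrial sequences differed at 1 base (99.97% identity).

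The width of wide peaks had a median of 600 bases (quartiles 500 and 800) and reached 20700 bases. The list moves in steps of 100 bases, and 316 wide peaks had 500 bases, 185 had 600 and 105 had 700. Together the wide peaks held 804700 bases, 15.3% of all listed bases, although they were 2.45% of the peaks. Width selected these peaks and the caller's p-value belongs to the same call, so both are descriptions. The median of −log10 p was 4.14 for wide peaks and 3.60 for narrower peaks, and p was at most 1e-05 for 24.1% of wide peaks and 14.2% of narrower peaks. The smallest p in the list, 5.24e-15, was shared by 14 wide and 371 narrower peaks. Just inside the limit, it was reached by 4 peaks of 500 bases, among them those in an intron of Filip1l and in the antisense gene Gm7854 beside Cpeb2. Just outside, it was reached by 14 peaks of 400 bases, among them those named for BC048507, Pde6a and Plxdc2, which a fixed order picked from the tie.

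**Figure D1:**
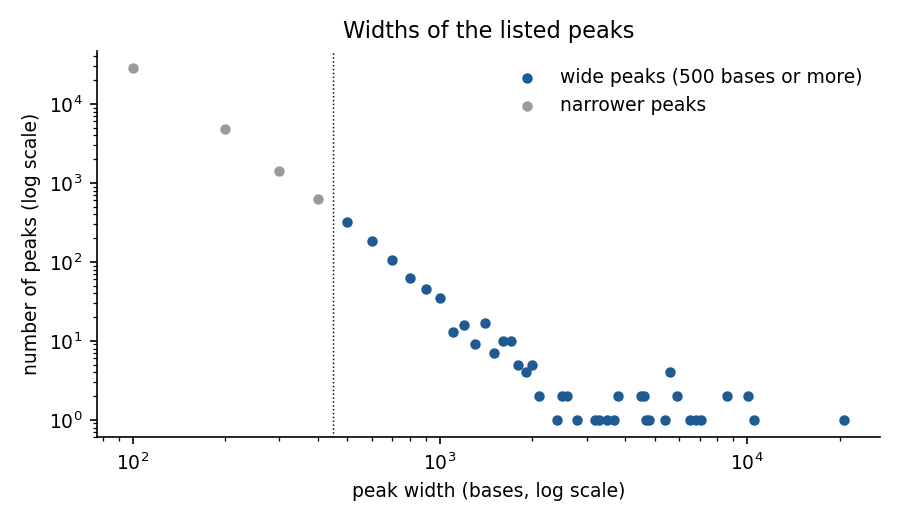
Number of listed peaks (vertical, log scale) at each peak width in bases (horizontal, log scale), with wide peaks in blue and narrower peaks in grey; the dotted line marks the limit. Counts fall with width to 316 peaks at 500 bases, and single peaks reach 20700 bases.

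The list ran over the chromosomes in 2 passes of 17990 peaks each, and no source used here says what the passes are, so they were not counted as replicates. Wide peaks recurred between the passes. Of the 881, 70.3% (95% interval 67.2 to 73.2) overlapped a wide peak of the other pass, against 527 narrower peaks (1.38% to 1.63%), and 880 overlapped a peak of any width in the other pass, against 10867 narrower peaks. A wide interval has more bases on which to meet another one. By bases, 87.4% of wide-peak bases and 32.2% of narrower-peak bases lay under a peak of the other pass. This share rose with width, which selected the peaks. It was 17.3% at 100 bases, 51.3% at 200, 67.2% at 300 to 400 and 78.4% at 500 to 600. Of the 400-base peaks, 99.5% met a peak of the other pass, so this recurrence was not particular to wide peaks. The ends differed between passes, since 9.53% of wide peaks and 10.2% of narrower peaks had the same start and end in both. The passes did not divide the wide peaks by strand: 47.8% of the wide peaks assigned to a gene strand in the first pass and 45.5% in the second lay on plus-strand genes. Merged over both passes, the wide peaks formed 539 sites, of which 291 (54.0%) held a wide peak of both passes, 121 of the first alone and 127 of the second alone.

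The widest sites were of several kinds: nuclear noncoding RNAs, very long exons, introns and intergenic sequence. Neat1, the scaffold RNA of paraspeckles, was covered over 99.6% of its length by a site of 20700 bases (chr19:5824701-5845400). The first pass gave it 1 peak of 20700 bases, and the second gave peaks of 10500 and 10100 bases. Malat1, a long RNA of nuclear speckles, was covered over 99.0% of its length (chr19:5795001-5802600), by peaks of 4800 and 1900 bases in the first pass and of 6800 and 600 bases in the second. All 3 peaks over Neat1 and all 4 over Malat1 were wide. The passes summed to nearly the same width on each RNA, 20700 and 20600 bases on Neat1 and 6700 and 7400 bases on Malat1, with breaks at different places.

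Ahnak, which codes for a giant scaffold protein, held a wholly exonic site of 16700 bases (chr19:9001701-9018400), with peaks of 10100 and 6500 bases in the first pass and of 7100, 5400, 2400 and 1300 in the second. This site covered 83.8% of the exonic bases of the gene. Srrm2, which codes for a scaffold protein of nuclear speckles, held an exonic site of 5100 bases (chr17:23816501-23821600), with a widest peak of 3200 bases in the first pass and 2800 in the second. Mdm4, which codes for an inhibitor of p53, held an exonic site of 5600 bases in its 3′ UTR (chr1:132986501-132992100), found with the same width in both passes. A second Mdm4 site of 4500 bases (chr1:133003801-133008300) was 13.2% exonic. Scd2, a stearoyl-CoA desaturase, held a site of 4400 bases at its end (chr19:44302401-44306800), which the list names for Mir5114, a microRNA inside it. Wide sites lay over 69.7% of the Scd2 gene. Among the narrower of the 20 widest sites, those of H6pd (2700 bases), of Peg3, an imprinted zinc finger gene (2300 bases, named for its neighbour Zim1), and of Lasp1, an actin-binding protein (2100 bases), were wholly exonic, whereas the Smc5 site (2100 bases) was 19.1% exonic. The sites named for Gstp3 (3500 bases), Gm5420 (3500), Dhx40 (3300) and Peli1 (3100) held no exonic base, and those of Gstp3 and Dhx40 were 90.8% and 98.4% repeat-masked.

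**Figure D2:**
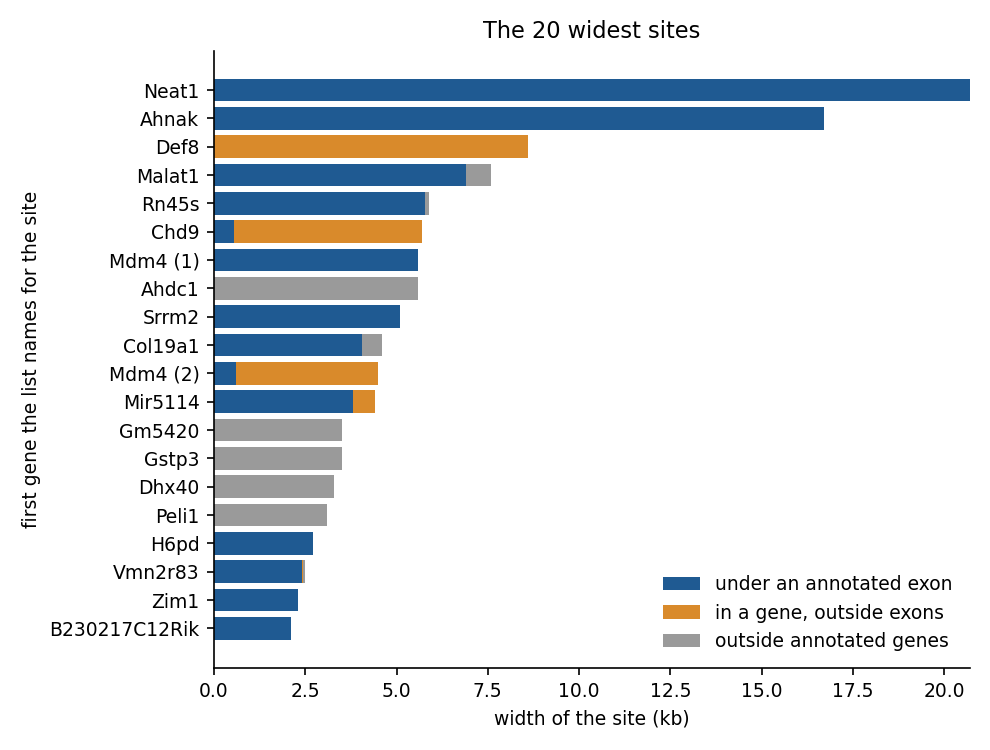
Width in kb (horizontal) of the 20 widest sites, each labelled with the first gene the list names for it, divided into bases under an annotated exon (blue), in a gene outside exons (orange) and outside genes (grey). Neat1 at 20.7 kb and Ahnak at 16.7 kb are blue throughout, while the Def8 site of 8.6 kb is orange throughout.

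Of 10 annotated genes of at least 1000 bases with the largest share under wide peaks, 9 were noncoding RNA genes and 1 was a processed pseudogene, Gm13394 (99.1%). Besides Neat1 and Malat1 they included Gm15890 (83.3%) and Gm15889 (71.4%), an antisense gene and a lincRNA beside Herpud1, and Gm17035 (92.9%), an antisense gene whose wide peaks were named for Ndrg1. A further 3, Gm26917, Gm42418 and the ribosomal RNA gene CT010467.1, shared the site named for Rn45s, the precursor of ribosomal RNA (chr17:39842901-39848800, 5900 bases). This interval was wide in both passes although reads matching ribosomal RNA had been removed before mapping. The last, Gm47015 (81.7%), is a lincRNA named Vmn2r83 in the list.

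Location classes of wide peaks differed from those of narrower peaks in the deposited annotation. The 3′ UTR class held 260 wide peaks (29.5%, 95% interval 26.6 to 32.6) against 19.2% of narrower peaks (18.8 to 19.7). The intron class held 192 wide peaks (21.8%, 19.2 to 24.6) against 42.0% of narrower peaks (41.5 to 42.5). Exons outside UTRs held 21.7% of wide and 24.1% of narrower peaks, and their intervals overlapped. Distal intergenic sequence held 117 wide peaks (13.3%, 11.2 to 15.7) and 8.62% of narrower peaks (8.33 to 8.92), and 5′ UTRs held 3.18% and 2.84%. Of these 117, 32 were named for Gm5420. At the limit the intergenic order was the other way, with 12.5% of 400-base peaks (10.1 to 15.3) and 8.54% of 500-base peaks (5.94 to 12.1). For introns these shares were 30.5% and 24.4%, and for 3′ UTRs 24.5% and 30.7%, in the same order as over all peaks. The promoter class held 10.6% of wide peaks (8.70 to 12.8) and 3.12% of narrower peaks (2.95 to 3.31). This class is set by a transcript start inside the peak, which a wide interval meets more often by its size.

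**Figure D3:**
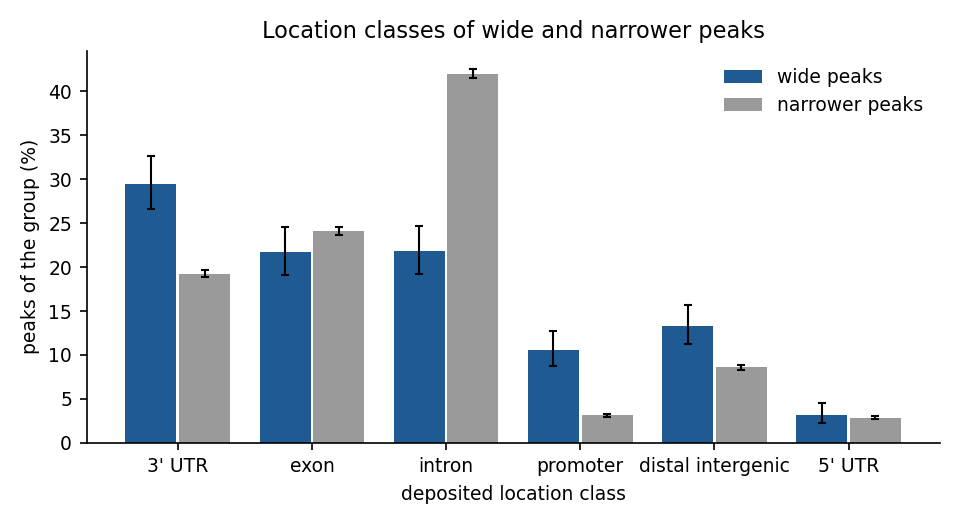
Percentage of wide peaks (blue, left of each pair) and of narrower peaks (grey, right) in each deposited location class, with 95% Wilson intervals as error bars. Wide peaks stand at 29.5% in 3′ UTRs and 21.8% in introns, against 19.2% and 42.0% for narrower peaks.

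Set against GENCODE exons base by base, 58.8% of wide-peak bases were exonic, 26.4% lay in genes outside exons and 14.8% outside annotated genes, against 47.2%, 43.2% and 9.55% of narrower-peak bases. At the limit, the share outside annotated genes was 13.1% in 400-base peaks and 9.73% in 500-base peaks. Among wide peaks the exonic share did not climb steadily with width: it was 57.6% at 500 to 600 bases, 53.1% at 700 to 900, 55.04% at 1000 to 1900 and 67.9% in the 41 peaks of 2000 bases or more. It was 44.6% in the 28242 peaks of a single bin. Among wide peaks of the exon class, 61.3% (54.2 to 67.9) named the last exon of the transcript, against 35.6% of narrower ones (34.6 to 36.6). The only exon of a transcript, as in processed pseudogenes, also counts as its last here, and such exons were not separated. Among wide peaks of the intron class, 41.7% (34.9 to 48.7) named the first intron, against 30.2% of narrower ones. The annotated gene named for a peak overlapped, in whole or in part, 65.7% of wide peaks and 74.5% of narrower peaks. The others lay outside the gene of that name, or had a name that the annotation lacks. The 2 wide peaks named Rn45s count among them, although the list puts both in the promoter class. Of those others, 188 wide peaks lay in another annotated gene and 114 in none. Chromosome 19, which carries Neat1, Malat1, Ahnak, Chka and Scd2, held 15.4% of wide peaks (136) and 12.02% of narrower peaks, on 2.25% of the genome length.

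A splice site lay inside 24.9% of wide peaks (22.1 to 27.8) and 11.3% of narrower peaks (10.9 to 11.6). Per kb the order was the other way, with 0.636 splice sites in wide peaks and 1.04 in narrower peaks. Whole introns of 30 bases or more inside a wide site numbered 56 in 27 genes, of which 44 lay in 21 protein-coding genes. Those 44 had a median length of 92 bases, against 1410 bases for all introns of protein-coding genes, and 8 were longer than the reads of 150 bases. Only introns that fitted inside a site could be counted, and sites that held one had a median width of 850 bases. The counting rule itself thus selects short introns, and the difference between these medians is not a result. Most of these introns were shorter than a bin of 100 bases, so that reads over the exons alone, spliced or not, cannot be told apart from reads in the intron. Eef1a1 and Eef2, the elongation factors that bring transfer RNA to the ribosome and move it along, held 5 such introns each, of 77 to 99 and 70 to 92 bases, and 4 of those in Eef1a1 are exonic in another annotated transcript. Eef1a1 had 1 wide peak of 2000 bases in each pass (chr9:78478401-78480400), and wide sites covered 76.2% of its exonic bases and 60.8% of those of Eef2. Leng8, Gnas and Grina held 3 each, and Actb, Hsp90ab1 and Arrdc2 held 2.

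The longer introns lay mainly in Sgk1, a kinase gene induced by glucocorticoids. It held 6 whole introns of 140 to 460 bases, 5 of them longer than the reads and none exonic in another annotated transcript. Their sites of 600, 1700 and 1500 bases lay in the 3′ part of the annotated gene (between chr10:21994701 and chr10:21999700). A transcript also starts there: of its 7 wide peaks, 4 were in the promoter class, 2 in 3′ UTRs and 1 in an exon. The first pass gave Sgk1 wide peaks of 1500, 800, 500 and 500 bases, and the second pass gave 1700, 1200 and 600. Mdm4 held an intron of 763 bases inside its second site, and Pcyt2, of phosphatidylethanolamine synthesis, held one of 379 bases that another annotated transcript keeps as exon.

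Some stretches held many wide peaks, counted over both passes. When sites with gaps of up to 20 kb were joined, they formed 292 stretches. Of these, 45 stretches held 5 or more wide peaks and 402 of the 881 (45.6%), and 11 stretches held 10 or more and 186 wide peaks (21.1%). Narrower peaks were not joined in this way, so whether such gathering is particular to wide peaks was not tested. The stretch with the most, 39 wide peaks in 21 sites, spanned 52200 bases (chr10:21733501-21785700) and was named for Gm5420, a gene that contained none of them. Of these 39, 32 were classed as distal intergenic, and the only annotated gene that the sites touched was the lincRNA Gm29323. The nearest coding gene to its widest site was Sgk1, 124784 bases away. The same stretch held 172 listed peaks in all.

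Mdm4 came next with 22 wide peaks, all inside the gene, 11 in each pass. Chka, which codes for the choline kinase that begins phosphatidylcholine synthesis, also had 22, with 12 in the first pass and 10 in the second, of which 10 were classed as intronic. Its widest peak was 2000 bases in the first pass and 2100 in the second, at one site (chr19:3871301-3873400) that was 29.2% exonic. Herpud1, a gene of the endoplasmic reticulum stress response, named 21 wide peaks, of which 7 lay in its body. Gm15890, antisense to Herpud1, carried 15 wide peaks, 7 in the first pass and 8 in the second, which summed to 6300 and 6000 bases. Igfbp7, which codes for a secreted growth factor binding protein, had 14 named wide peaks, and wide sites covered none of its exonic bases. Tns1, which codes for a focal adhesion protein, and Amotl2, of the angiomotin family, named 12 and 11 wide peaks, all in the gene body. The other 3 of the 10 genes that named most wide peaks were Klk1b27 (11, none in its body), 6820431F20Rik, a transcribed pseudogene (11, of which 3 in its body), and H6pd (9, as many as Bcl2l1, Igf2r, Nfat5 and Nuak2). H6pd, a hexose-6-phosphate dehydrogenase of the endoplasmic reticulum, had 72.2% of its exonic bases under wide sites. In the imprinted Igf2r region, wide sites covered no exonic base of Igf2r or of Airn, the antisense RNA that starts inside it.

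**Figure D4:**
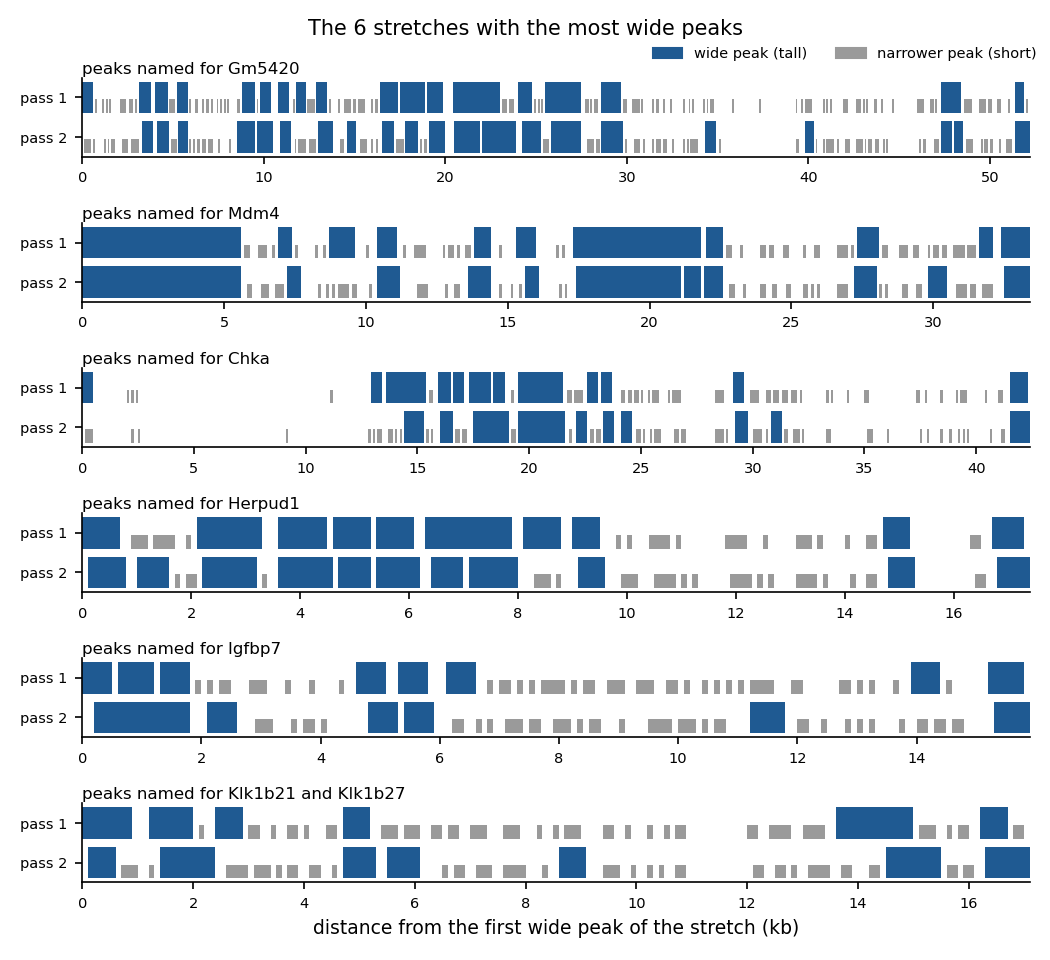
Wide peaks (tall blue boxes) and narrower peaks (short grey boxes) of the first and second pass along the 6 stretches with the most wide peaks, by distance in kb from the first wide peak. In the Mdm4 stretch a peak of 5600 bases opens both passes, and over the first 30 kb of the Gm5420 stretch most wide peaks of the first pass overlap one of the second.

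Some wide sites consisted mostly of repeated sequence. Over all wide peaks, 17.97% of bases were repeat-masked, against 18.4% of narrower-peak bases and 25.4% in windows of the same width on both sides of each wide peak. GC content was 49.2% in wide peaks, 49.4% in narrower peaks and 47.0% in those windows. Of the 539 sites, 31 (5.75%, 4.08 to 8.05) were over 80% masked. Counted by peak, this held for 5.79% of wide peaks and 7.88% of narrower peaks, so it was not particular to wide ones. Of the 31 sites, 30 had at least 1 copy elsewhere on the chromosomes at 90% identity over 50% of the site. In all, 138 sites (25.6%, 22.1 to 29.5) had such a copy and 69 had 10 or more. Copies of narrower peaks were not searched, so these counts have no comparison. No source used here says how reads with several matches were placed, so a peak in such a site and reads from its copies cannot be told apart.

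When sites that shared 20% or more of their words of 31 bases were grouped, 86 sites with 145 wide peaks (16.5%) fell into 24 families. The largest joined 17 sites on 9 chromosomes with 34 wide peaks, among them sites in introns of Abr, Plcd3, Rsrc1, Miga1, Galnt11 and Ctse and intergenic sites named for Dhx40 and Tbpl1. Those sites were 500 to 1900 bases wide, held no annotated exon, had 21 to 42 copies elsewhere and were 6.0% to 40% masked. The next family had 8 sites and held both the Chd9 site (5700 bases, 9.56% exonic) and the intergenic site named for Ahdc1 and Wasf2 (5600 bases), whose words were shared to 97.7% and 98.4%. A further family of 7 sites lay over processed pseudogenes, wholly masked, with 44 to 51 copies.

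Among the 16 sites of 3000 bases or more, 3 carried the same word of over 300 bases near both ends. It was 392 bases long in the Def8 intron site (chr8:123425801-123434400, 8600 bases), 429 in the Chd9 site and 364 in the Ahdc1 and Wasf2 site, and 9 to 13 bases in the other 13. The annotation used names no element there. Ahnak2, a relative of Ahnak, had 5 exonic sites that formed a family of their own within 1 gene.

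The mitochondrial match was confined to a single site of the 539. In the site named for Col19a1 (chr1:24611501-24616100, 4600 bases, wide in both passes), 98.1% of the words of 31 bases occur in the mitochondrial genome, in no other site did any, and 7 unprocessed pseudogenes are annotated there. The list has no mitochondrial peak, and reads of mitochondrial RNA and of this copy cannot be told apart at a difference of 1 base in 3351.

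The density of GGCCAC on the strand of the gene was 0.397 per kb in wide peaks (269 matches in 759 peaks with a gene strand) and 0.377 per kb in narrower peaks. GCCATA, a second hexamer named by the study that shares the letters GCCA, had 0.195 and 0.192 per kb. On either strand, GGCCAC occurred in 33.9% of the 316 peaks of 500 bases (28.9 to 39.2) and in 25.9% of the 632 windows of 500 bases beside them (22.7 to 29.5). For GCCATA the shares were 16.8% (13.1 to 21.3) and 13.3% (10.9 to 16.2). At 500 bases the intervals overlapped for both hexamers. Over all 881 wide peaks and the windows of their own width beside them, the shares were 41.1% (37.9 to 44.4) and 35.5% (33.3 to 37.7) for GGCCAC, and 19.5% and 19.4% for GCCATA. Here the GGCCAC intervals did not overlap, but they are too narrow because peaks of both passes share sequence. The study drew both hexamers from its peaks, so these shares are a description.

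Wide peaks overlapped 241 protein-coding genes, 1.1% of the 21938 annotated ones and 5.77% of the 4179 with any peak. Against these shares, 9 of 26 SR-related proteins, splicing kinases and their partners had one (34.6%, 19.4 to 53.8), as did 9 of 32 SR and hnRNP proteins (28.1%, 15.6 to 45.4). A peak of any width lay over all 26 of the first and 31 of the second. In the first of these lists, the RNA helicase genes Ddx17 and Ddx5 had 8 and 6 wide peaks with widest peaks of 1800 and 1100 bases, and Rsrp1 had 4 with a widest of 1300. The kinase genes of that list, Clk1, Clk2, Clk3, Clk4, Srpk1, Srpk2 and Prpf4b, all had peaks but no wide one. Among the SR and hnRNP genes, Hnrnpl had a peak of 1000 bases and Srsf5 one of 900, while Srsf1 and Srsf3 had none. Of 17 tri-snRNP genes, 7 had a peak and 0 had a wide one (upper limit of the Wilson interval over all 17, 18.4%). With 7 genes that had a peak, 0 cannot be told apart from the 5.77% of protein-coding genes with any peak. Usp39 itself, which the vector also expresses, had 8 peaks of at most 200 bases.

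Wide peaks were found over 4 of 13 genes for giant linker proteins (30.8%, 12.7 to 57.6), namely Ahnak, Ahnak2, Ppl and Eppk1. They were found over 5 of 18 glucocorticoid-responsive genes (27.8%, 12.5 to 50.9), where Ndrg1, a stress-responsive gene, and Sgk1 both reached 1700 bases (in Ndrg1 with the peak that also lay over Gm17035) and Fkbp5, an immunophilin that binds the receptor complex, reached 1200. Of 23 translation factor genes, 5 had one (21.7%, 9.66 to 41.9), and of 15 nuclear long noncoding RNAs 4 (26.7%), Neat1, Malat1, Airn and Firre. Of 30 actin and junction genes, 5 had one (16.7%), with 4 wide peaks over Actb and 2 over Actg1. Histone genes had 3 of 15, integrated stress response genes 3 of 17 (Atf4, Psat1 and Herpud1) and immediate early genes 3 of 30 (Zfp36l2, Ccn2 and Junb). Heat shock genes had 2 of 18 (Hspa8 and Hsp90ab1), targets of Nrf2 1 of 16 (Gclc), hosts of small nucleolar RNAs 1 of 18 (Hspa8), chromatin regulators 1 of 24 (Hdac7) and keratins and other epithelial genes 1 of 14 (Krt7).

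Ribosomal protein genes had a peak over 31 of 32 and a wide one over 2 (6.25%, 1.73 to 20.1), Rpl8 with 500 bases and Rpl13a with 600, a share near that of all protein-coding genes with any peak. Genes for lipid synthesis had 2 of 24, the desaturases Scd2 and Scd1, and genes for lipolysis and fatty acid oxidation 0 of 18. A peak of any width lay over 18 of the first and 9 of the second, too few to set either apart from that share. Core autophagy genes had 1 of 36, Map1lc3b, and lysosome genes 3 of 26, Lamp1, Ctsd and Npc2. A peak of any width lay over 18 of the autophagy and 17 of the lysosome genes. For autophagy genes, 1 among these 18 is near the 5.77% of protein-coding genes with any peak. Of the genes that the study followed, Nrbp2 had 3 wide peaks among 10, with 800 bases in the first pass and 700 in the second at its 3′ UTR. The lincRNA Gm48952 in the same stretch also had 3 wide peaks reaching 800 bases, so RNA of either gene cannot be told apart there. Hsf1 had 1 peak and Ulk3 had 2, all of 100 bases, Tcirg1 had 9 and Ptbp1 had 7 of at most 300, and Trp53inp1 had none.

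**Figure D5:**
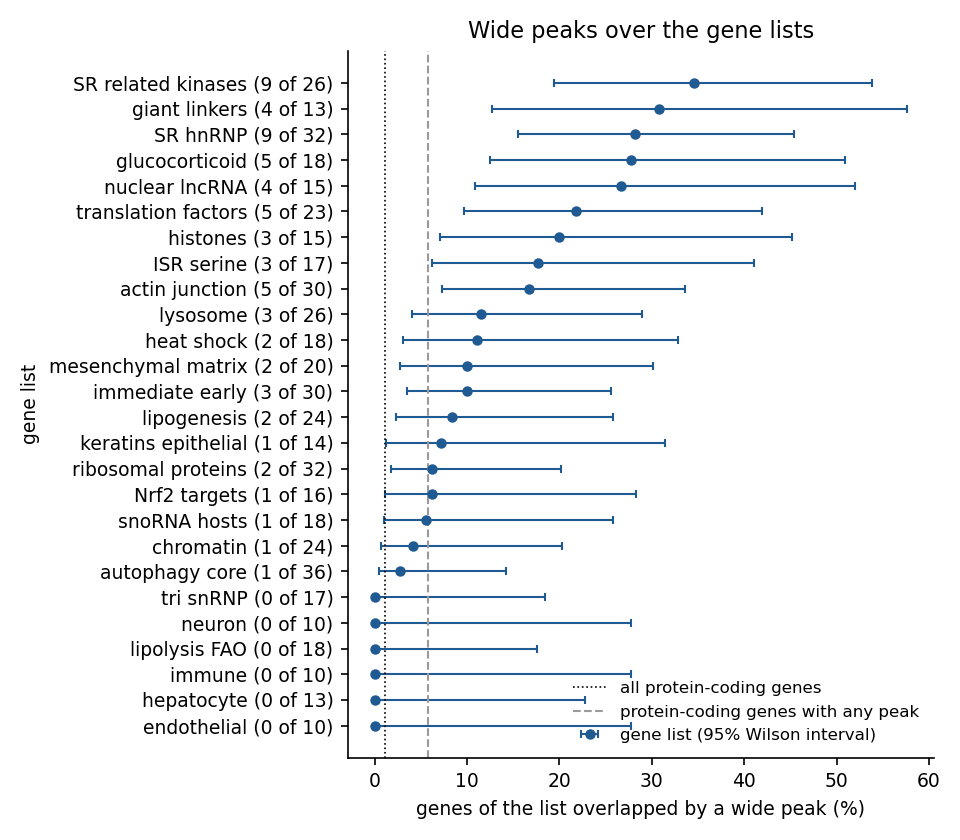
Percentage of the genes of each list overlapped by a wide peak (points, with 95% Wilson intervals), with counts beside the list names; the dotted line is the share of all protein-coding genes (1.1%) and the dashed line that of those with any peak (5.77%). SR-related genes stand highest at 34.6%, and several lists, tri-snRNP genes (0 of 17) among them, stand at 0. The points count all genes of a list, also those without a peak, so the dashed line has another denominator.

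As a check of the cell label, 0 of 13 hepatocyte genes had a wide peak, and only Krt8 and Krt18 among them had a peak of any width. Alb, Afp, Ttr, Apoa1, Hnf4a and the other 6 had none. None of the 10 immune, 10 endothelial or 10 neuron markers had a peak. Of 14 keratin and other epithelial genes, 5 had a peak, and of these Krt7, a keratin of simple epithelia, had 6 wide peaks reaching 1700 bases, whereas Krt8, Krt18, Krt19 and Krt20 had no wide one. The other 9, Epcam and Cdh1 among them, had no peak. Of 20 mesenchymal and matrix genes 7 had a peak and 2 had a wide one, Vim and Sparc. A list of peaks gives no expression level, so how abundant these RNAs were is unknown.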

How the data were processed

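RIP-seq of FLAG-Usp39 in AML12 cells gave 1 IP and 1 Input library. Per the submitters' processing notes and the methods, the authors trimmed reads with Trim Galore (0.6.1), checked them with FastQC (0.11.9), removed ribosomal RNA reads with Bowtie (1.2.3), mapped the rest to mm10 with HISAT2 (no version stated for this assay), called peaks with Piranha (bins of 100 bases) and assigned genes and location classes with clusterProfiler. No source used here says whether Piranha was given the Input library. The deposited list holds for each peak a position, a width, the caller's p-value, a location class and a distance to a transcript start, and its columns name neither library. A second deposited table holds the count of peaks per gene and was used only for the number of its genes.

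Peaks of 500 bases or more were taken as wide. They were set against GENCODE release M21 and RefSeq GRCm38 (lower-case bases taken as repeat-masked) with Python 3.11.15, pandas 2.3.3 and pysam 0.24.0. Copies were searched with minimap2 (2.31-r1302). Shares have 95% Wilson intervals (scipy 1.17.1), and as the list holds no replicate values no test was run. Interval functions were checked on simulated data. The wide peaks and the gene lists were chosen with earlier results of these data known. The genes named were those of the 20 widest sites, of the 10 largest counts of wide peaks, of the 10 largest shares covered (at least 1000 bases), up to 4 members per list with the widest peaks and 2 without, those of the 3 smallest p at 500 and 400 bases, and those the study followed. The gap of 20 kb between sites, the limits for copies and shared words, and the smallest intron counted (30 bases) were set after the data were seen. Alternatives were another minimum width, a smaller p-value, merged or joined peaks, single passes, other matching rules, an annotation by overlap and other weights of genes. Other genes, and those of the introns and sequence families, were chosen after their values were seen.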

Additional observations from a re-analysis of the deposited data

How the results depend on the processing

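Of 111 alternative values of 15 results, 74 stayed within the counting interval of the reported value (for counts, within 1.5 times) and 37 moved beyond it. The number of wide peaks was 1498 with a minimum width of 400 bases, 167 with 1000 bases, 212 with p at most 1e-05, 437 in the first pass, 444 in the second, 539 after merging into sites and 1888 when peaks of a pass within 100 bases were joined first. With 400 bases, 25.4% of wide peaks lay in introns and 368 protein-coding genes were overlapped. With 1000 bases, 13.8% lay in introns, 16.8% at promoters and 18.6% in distal intergenic sequence. At that width 76.6% met a peak of 1000 bases or more in the other pass, and 98.2% met a wide peak there. Of these peaks, 35.9% held a splice site and 62.2% of bases were exonic, and 51 protein-coding and 18 listed genes were overlapped. With p at most 1e-05, 28.3% lay in exons, 24.1% in 3′ UTRs and 13.7% at promoters, 59.0% lay in the named gene and 31.6% held a splice site. Of these peaks, 59.0% met a wide peak of the other pass that also had p at most 1e-05. Wide peaks of the other pass with a larger p were not counted in that share. With that limit 66.02% of bases were exonic, and 85 protein-coding and 28 listed genes were overlapped.

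Without the 10 genes with the most wide peaks, 18.9% lay in introns, 34.1% in 3′ UTRs and 10.4% in distal intergenic sequence, and 64.8% of bases were exonic. With equal weight for each named gene these shares of peaks were 15.1%, 36.9% and 10.1%. An annotation by overlap gave 29.1% in introns and 27.7% in exons, and 0 at promoters because it has no such class. The same annotation put 44.4% of narrower peaks in introns and 25.4% in exons. Matching on the same start and end gave 9.53%. Under every alternative run for it, the share of wide peaks in introns stayed below the reported 42.0% of narrower peaks.

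No paired analysis was possible because each group had 1 library and the list names no sample. Depth is unknown, so how often a wide transcript breaks into narrower peaks by lack of reads cannot be seen. The p-value belongs to the call that set the width. Names in the list are those of the nearest transcript start, and for sites with copies the source of the reads cannot be told apart.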
